A study of Mus musculus with 12 samples.

Results

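The genes described here are small non-coding RNA loci and the host genes that carry small nucleolar RNAs (snoRNAs) in their introns, measured in mouse frontal cortex. They are the rows of the authors' gene tables that carry a symbol starting with Snora, Snord, Scarna or Snhg, or the symbol Rmrp, Rpph1 or Rn45s, and that passed the authors' minimum for a test. This gave 24 of the 18417 gene models tested for GluN1 against WT, 23 of 18430 for GluN1Cre against GluN1 and 25 of 18429 for GluN1Cre against WT. The models fall under 26 names, of which 17 were tested in all 3 tables, 6 in 2 tables and 3 in 1 table.

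The groups were GluN1Cre, GluN1 and WT, with 4 male mice each. The series title speaks of Grin1 knockdown for the GluN1 mice and of Grin1 Cre rescue for the GluN1Cre mice; Grin1 encodes the subunit that all NMDA-type glutamate receptors contain. All animals, WT included, were F1 hybrids of C57Bl/6 and 129/SvlmJ, were given tamoxifen from the age of 10 weeks, as an oral dose of 6 mg and as chow that supplied about 14 mg, and were 14 weeks old. The labels do not name the promoter that drives Cre or the nature of the Grin1 allele, and by the group names only GluN1Cre mice carried Cre, so an effect of Cre itself and one of restored Grin1 cannot be told apart. RNA was selected for poly(A) tails before the libraries were made, and the authors deposited 1 FPKM value per group (fragments scaled to the length of the transcript and the size of the library) with the p and q of their Cuffdiff test. The values below therefore carry no spread between animals, and depth per animal is unknown. A model was called changed where p was under 0.05 and q under 0.10, the threshold of the series' design text.

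SnoRNAs are short nuclear RNAs that guide chemical modification of other RNAs, mostly ribosomal RNA. The C/D type guides methylation and the H/ACA type guides the conversion of uridine to pseudouridine; small Cajal body RNAs (scaRNAs) do the same for spliceosomal RNAs. Most mammalian snoRNAs are cut out of the introns of a host gene, and the spliced hosts named Snhg are mainly non-coding, carry a poly(A) tail and in many cases are degraded by nonsense-mediated decay. Rmrp and Rpph1 are different: RNA polymerase III makes them as the RNA components of the ribonucleases MRP and P, which process ribosomal RNA and transfer RNA, and they have no poly(A) tail. Rn45s is the precursor of the large ribosomal RNAs made by RNA polymerase I, and it too has no poly(A) tail.

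The 2 RNase RNAs are shown because theirs were the largest called changes among these loci, with the longest runs of A in capitals, since the libraries were selected for poly(A) (GENCODE M21, GRCm38; Rmrp on the minus strand at chr4:43492788-43493058 and the last 300 bases of Rpph1 on the minus strand at chr14:50807449-50807748).
Rmrp: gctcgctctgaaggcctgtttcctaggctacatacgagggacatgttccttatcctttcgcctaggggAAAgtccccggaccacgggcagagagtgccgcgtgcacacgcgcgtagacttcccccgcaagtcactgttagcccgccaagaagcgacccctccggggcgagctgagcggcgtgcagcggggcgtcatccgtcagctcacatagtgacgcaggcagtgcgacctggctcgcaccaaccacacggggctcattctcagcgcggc
Rpph1: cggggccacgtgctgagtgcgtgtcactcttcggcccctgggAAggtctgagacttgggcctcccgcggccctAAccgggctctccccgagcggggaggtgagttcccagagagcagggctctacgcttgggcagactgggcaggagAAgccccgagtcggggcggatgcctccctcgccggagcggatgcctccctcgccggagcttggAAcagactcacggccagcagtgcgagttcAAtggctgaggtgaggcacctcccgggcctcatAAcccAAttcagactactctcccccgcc
The longest run of A was 3 bases in the 271 bases of Rmrp and 2 bases in the 319 bases of Rpph1. Neither sequence holds AATAAA or ATTAAA, the usual signals for adding a poly(A) tail, on its own strand.

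In the GluN1 cortex Rmrp, Rpph1 and the main model of Rn45s were higher than in WT, and Snhg7, a snoRNA host on the chromosome of Grin1, was lower. In the GluN1Cre cortex Rmrp, Rpph1 and Rn45s were lower than in GluN1. Snhg7 was lower in GluN1Cre than in WT too. Rmrp, Rpph1 and Rn45s have no poly(A) tail, and the libraries were selected for such tails. A difference in their level and one in how much passed the selection therefore cannot be told apart. Of the 24 members tested for GluN1 against WT, 3 were called higher, 1 was called lower and 20 were not called, against a background of 2.52% of all tested models called (1.66% higher and 0.858% lower). For GluN1Cre against GluN1, 0 of 23 were called higher, 3 were called lower and 20 were not called, against a background of 0.689% (0.13% higher and 0.559% lower). For GluN1Cre against WT, 1 of 25 was called, and it was lower, against a background of 0.841% (0.364% higher and 0.478% lower). At a stricter q under 0.05, the members called were 4 beside a background of 1.94%, 2 beside 0.559% and 1 beside 0.662% in the same 3 comparisons. The median log2 fold of the tested members was 0.02, -0.0059 and -0.0081 in these 3 comparisons, beside -0.0033, -0.0056 and -0.0080 for all tested models. The comparisons share groups in pairs, so their values are given side by side and not as independent results.

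**Figure D1:**
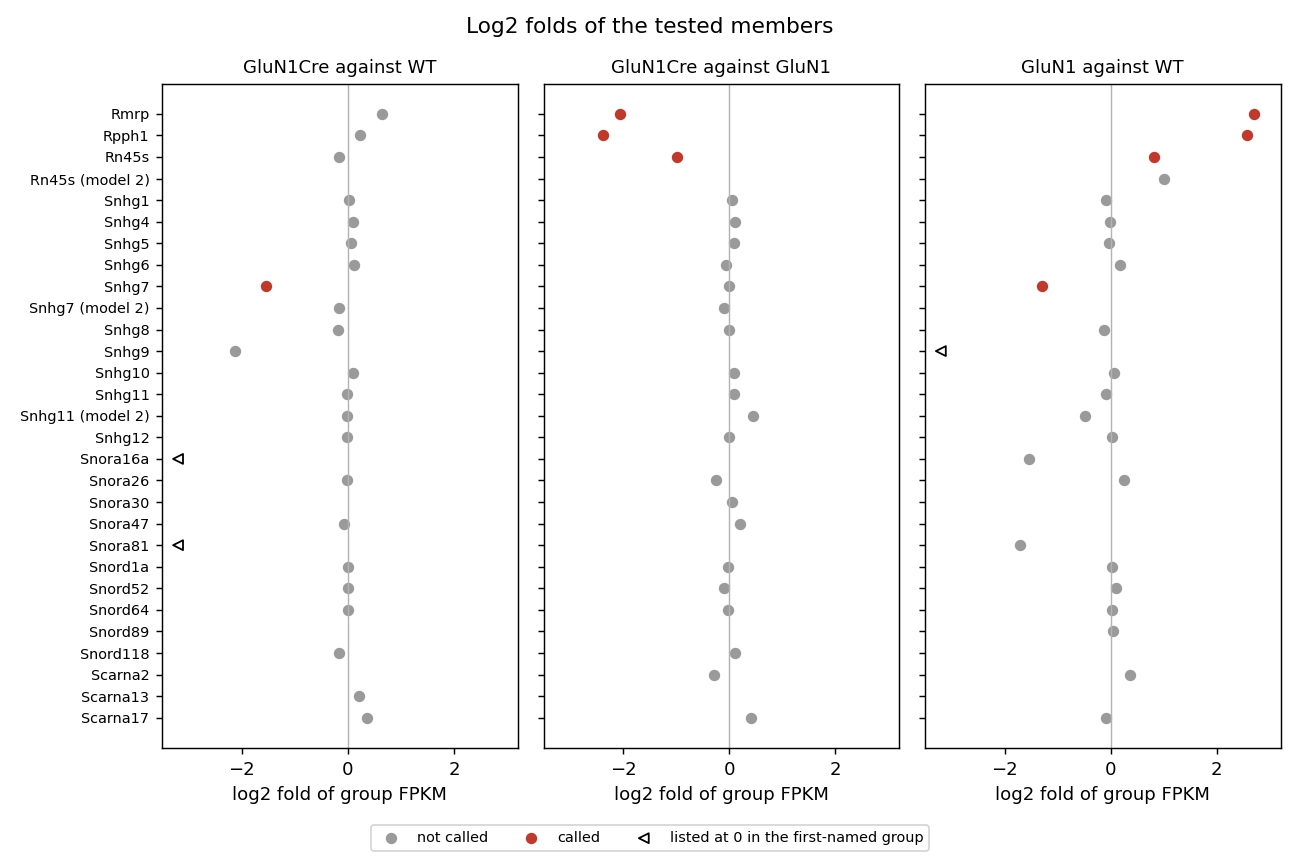
Log2 fold of the group FPKM values (x axis, first-named group over the second) of each tested member (y axis, by class) in the 3 comparisons; red points were called by the authors' test, grey points were not, and open triangles are members listed at 0 in the first-named group. The red points are Rmrp, Rpph1 and Rn45s for the 2 comparisons that involve GluN1, and Snhg7 for the 2 that involve WT.

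Rmrp had 9.32 FPKM in GluN1 against 1.43 FPKM in WT, a log2 fold of 2.71 (q = 0.022 in the authors' deposited table). This was the largest of the 236 called rises among models with a mean of at least 1 FPKM. In the table of GluN1Cre against GluN1 it had 2.27 FPKM in GluN1Cre and 9.40 FPKM in GluN1, a log2 fold of -2.05. The q of that fall was 0.0522 in the authors' deposited table, so it passed the threshold of 0.10 and would not pass one of 0.05. It stood at 2.25 FPKM in GluN1Cre and 1.45 FPKM in WT, a log2 fold of 0.64 that was not called (p = 0.286 in the authors' deposited table).

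Rpph1 had 7.31 FPKM in GluN1 against 1.24 FPKM in WT, a log2 fold of 2.56 (q = 0.0117 in the authors' deposited table). It had 1.41 FPKM in GluN1Cre against 7.39 FPKM in GluN1, a log2 fold of -2.39 (q = 0.0219 in the authors' deposited table). That was the largest of the 93 called falls with a mean of at least 1 FPKM, and Rmrp was second. Rpph1 stood at 1.42 FPKM in GluN1Cre and 1.22 FPKM in WT, a log2 fold of 0.23 (p = 0.686 in the authors' deposited table). The GluN1 group was thus high for both RNase RNAs, and neither of the other 2 groups exceeded 2.27 FPKM.

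Rn45s had far higher levels than either RNase RNA on the same per-length scale. Its main model had 1087 FPKM in GluN1 against 618 FPKM in WT, a log2 fold of 0.81 (q = 0.00456 in the authors' deposited table). By level it ranked 9 of 18417 tested models in GluN1 and 39 in WT. It had 596 FPKM in GluN1Cre against 1176 FPKM in GluN1, a log2 fold of -0.98 (q = 0.0118 in the authors' deposited table). At 590 FPKM in GluN1Cre and 661 FPKM in WT, the log2 fold was -0.16, with p = 0.0329 and q = 0.9999 in the authors' deposited table, and it was not called. A further Rn45s model over the same span of chromosome 17 had 227 FPKM in GluN1 and 114 FPKM in WT and was not called (0.996 on the log2 scale, with q = 0.648 in the authors' deposited table). In the other 2 tables a further Rn45s model lay under 0.15 FPKM in every group and was not tested. Each table has its own assembly, so whether these are the same model cannot be told. Ribosomal RNA genes are repeated many times in the genome, so the Rn45s values are reported as uncertain.

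**Figure D2:**
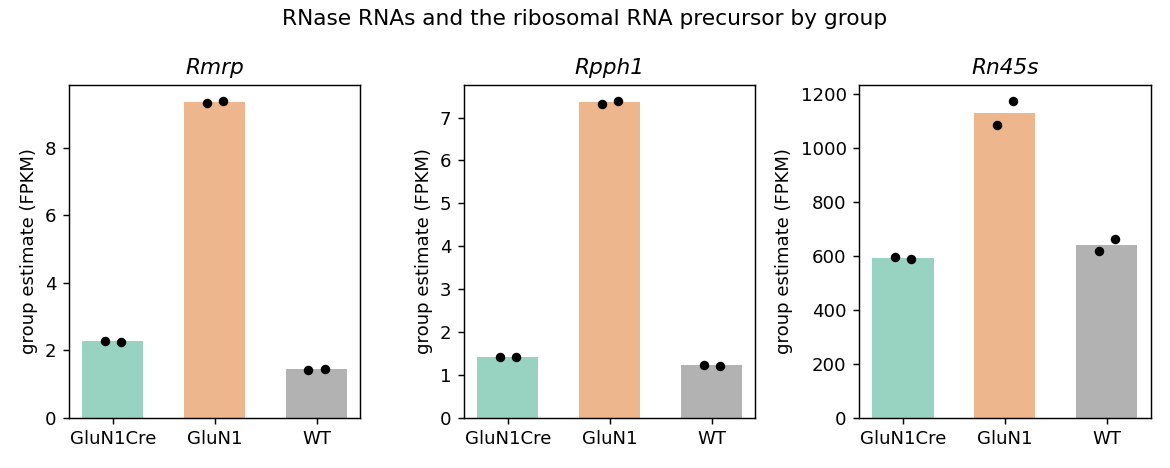
FPKM per group (y axis, from 0) of Rmrp, Rpph1 and Rn45s in GluN1Cre, GluN1 and WT cortex; each black point is the group's value in 1 of the 2 tables that hold it, and the bar is their mean, so the points show differences between table runs and not between animals. GluN1 is the highest group in all 3 panels, at 9.32 and 9.40 FPKM for Rmrp, 7.31 and 7.39 FPKM for Rpph1, and 1087 and 1176 FPKM for Rn45s.

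Markers of the olfactory bulb differed between the same groups. Of 13 bulb marker models tested for GluN1 against WT, 11 were called higher and 0 lower, and their summed level was 183 FPKM in GluN1 and 74.8 FPKM in WT. For GluN1Cre against GluN1, 10 of 13 were called lower and 0 higher, with sums of 115 FPKM in GluN1Cre and 180 FPKM in GluN1. For GluN1Cre against WT, 10 of 12 were called higher and 0 lower, with sums of 114 FPKM in GluN1Cre and 74.3 FPKM in WT. The median log2 fold of these bulb models was 0.66. In that comparison Rmrp, Rpph1 and Rn45s had log2 folds of 0.64, 0.23 and -0.16 and were not called. No bulb marker model was listed at 0 in any group. Striatal medium spiny neuron markers were lower, with 6 of 13 models called lower in GluN1 against WT and 8 of 12 in GluN1Cre against WT. In GluN1Cre against GluN1, 1 of 12 was called lower. Of 10 cortical excitatory models, 1 was called lower in GluN1 against WT, Fezf2, and 0 higher, with 4 at an unadjusted p under 0.05. Their sums were 868 FPKM in GluN1 and 931 FPKM in WT. Cuffdiff called 0 of 10 in GluN1Cre against GluN1, with sums of 907 FPKM in GluN1Cre and 881 FPKM in GluN1. It called 0 of 10 in GluN1Cre against WT too, with sums of 897 FPKM in GluN1Cre and 940 FPKM in WT. In these 2 comparisons 1 and 2 models had an unadjusted p under 0.05. Meningeal markers had 3 of 5 models called higher in GluN1 against WT, with sums of 58.9 FPKM in GluN1 and 45.3 FPKM in WT. There 5 of 5 had an unadjusted p under 0.05. They had 0 Cuffdiff calls of 5 in each of the other comparisons, with 2 of 5 at an unadjusted p under 0.05 in both. Endothelial markers had 0 Cuffdiff calls of 4 in each comparison. Of these, 3 had an unadjusted p under 0.05 in GluN1 against WT, 0 in GluN1Cre against GluN1 and 1 in GluN1Cre against WT. Among 6 astrocyte models, Gfap and Aqp4 were called higher in GluN1 against WT, Gfap was called lower in GluN1Cre against GluN1, and Gfap was called higher in GluN1Cre against WT. Blood markers had 1 of 4 models called higher in GluN1 against WT, 3 of 4 in GluN1Cre against GluN1 and 3 of 4 in GluN1Cre against WT. The part of these tissues and cells in the levels of these RNAs was not tested. In bulk tissue, fewer cells of a type and less RNA per cell cannot be told apart.

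The proteins that work with these RNAs were nearly all uncalled. Among the proteins of RNase P and MRP, 1 of 12 models was called higher in GluN1 against WT: Pop4, a subunit that both enzymes share, at 13.9 FPKM in GluN1 and 10.3 FPKM in WT (0.43 on the log2 scale, with q = 0.0269 in the authors' deposited table). Pop4 had 11.8 FPKM in GluN1Cre against 13.6 FPKM in GluN1, a log2 fold of -0.20 that was not called (p = 0.0979 in the authors' deposited table). Against WT at 10.2 FPKM, GluN1Cre again had 11.8 FPKM (p = 0.144 in the authors' deposited table). The background of models called higher in GluN1 against WT was 1.66%, and 1 called model is too few to compare with it. The median log2 fold of the list was 0.03, -0.07 and -0.06 for GluN1 against WT, GluN1Cre against GluN1 and GluN1Cre against WT. In the same order, 2 of 12, 0 of 11 and 1 of 12 models had an unadjusted p under 0.05. Models higher and lower numbered 8 and 4, 1 and 10, and 4 and 8.

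RNA polymerase III makes Rmrp and Rpph1. A list of its subunits, of factors for its several promoter types, of its repressor Maf1 and of the RNA-binding protein Ssb had 0 Cuffdiff calls among 30, 30 and 31 models in those comparisons, with 1, 0 and 0 at an unadjusted p under 0.05. RNA polymerase I and factors linked to it, the machinery that makes Rn45s, had 0 Cuffdiff calls among 16 models in each comparison, and 0 models had an unadjusted p under 0.05. The proteins of snoRNA particles and their assembly had 0 Cuffdiff calls among 19 models in each comparison, with 1, 0 and 0 at an unadjusted p under 0.05. Their median log2 folds were -0.04, 0.02 and -0.00011. Nonsense-mediated decay factors also had 0 Cuffdiff calls among 15 models in each comparison, and 0 had an unadjusted p under 0.05. Other listed RNAs without a long poly(A) tail had 0 Cuffdiff calls among 2, 3 and 2 models, with 0, 0 and 1 at an unadjusted p under 0.05. Among them was Malat1, a nuclear long non-coding RNA, whose main model had 309 FPKM in GluN1 and 335 FPKM in WT, 317 FPKM in GluN1Cre and 326 FPKM in GluN1, and 296 FPKM in GluN1Cre and 330 FPKM in WT. Bc1 models were tested only for GluN1Cre against GluN1 and were not called (p = 0.823 and p = 0.85 in the authors' deposited table). For the other comparisons this list held Malat1 models only.

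Snhg7 hosts the H/ACA snoRNAs Snora17 and Snora43 in its introns, and both stand in the label of its main model. They are printed because the 1 host that was called carries them (GENCODE M21, GRCm38, minus strand; Snora17 at chr2:26639190-26639321 and Snora43 at chr2:26637847-26637985). Capitals mark the longest run the 2 share, 14 bases that end in ACA, the box that closes an H/ACA snoRNA.
Snora17: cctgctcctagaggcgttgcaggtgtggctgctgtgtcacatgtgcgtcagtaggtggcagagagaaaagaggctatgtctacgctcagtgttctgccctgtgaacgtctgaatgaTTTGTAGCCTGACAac
Snora43: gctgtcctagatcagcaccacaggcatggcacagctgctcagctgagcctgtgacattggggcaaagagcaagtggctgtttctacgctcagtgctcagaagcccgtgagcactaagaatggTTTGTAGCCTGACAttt
The run is followed by 2 bases in Snora17 and 3 in Snora43. ACA lies within the last 6 bases of 39 of 42 annotated Snora transcripts and of 5 of 98 Snord transcripts.

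Snhg7 had 4.86 FPKM in GluN1 against 11.9 FPKM in WT, 41.0% of WT, which is a log2 fold of -1.29 (q = 0.00456 in the authors' deposited table). It had 4.51 FPKM in GluN1Cre against 13.1 FPKM in WT, 34.5% of WT, which is a log2 fold of -1.53 (q = 0.0098 in the authors' deposited table). It stood at 4.51 FPKM in GluN1Cre and 4.56 FPKM in GluN1, a log2 fold of -0.01 (p = 0.94 in the authors' deposited table). WT was therefore the group apart for Snhg7, where GluN1 was the group apart for Rmrp, Rpph1 and Rn45s. Grin1 itself had a log2 fold of -1.28 for GluN1 against WT, 0.40 for GluN1Cre against GluN1 and -0.82 for GluN1Cre against WT, all called. A further Snhg7 model in the tables that hold GluN1Cre lay between 0.734 and 0.822 FPKM in every group and was not called.

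Snhg7 lies on chromosome 2 at chr2:26636918-26640260 as assembled in the table of GluN1 against WT, 1.32 Mb from the end of the Grin1 model. Within 0.1 Mb on either side 3 other models were tested, and in each table Cuffdiff called 0 of them, with 0 at an unadjusted p under 0.05. Of the 44 other models tested within 1 Mb on either side of it, 1 was called in GluN1 against WT, Fam163b at a log2 fold of -0.34. In GluN1Cre against WT it was 1 of 44 again, 4932418E24Rik at -0.67; both genes are named after their values were seen. Both counts come to 2.27%, beside a background of 2.52% for GluN1 against WT and 0.841% for GluN1Cre against WT. Each rests on 1 called model, which is too few to compare with either background. For GluN1Cre against GluN1, Cuffdiff called 0 of 44. Models at an unadjusted p under 0.05 numbered 3 of 44 for GluN1 against WT, 2 of 44 for GluN1Cre against WT and 0 of 44 for GluN1Cre against GluN1. What the closeness to Grin1 has to do with the level of Snhg7 was not tested.

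The promoter of Snhg7 (RefSeq, GRCm38.p6, chr2:26640195-26640494, minus strand) is printed as that of the called host, and the promoter of Snhg11 (chr2:158375463-158375762, plus strand) as that of the host with the highest level. Each runs from 250 bases before the start to 50 after it, with TATAAA, the TATA box letters, in capitals.
Snhg7: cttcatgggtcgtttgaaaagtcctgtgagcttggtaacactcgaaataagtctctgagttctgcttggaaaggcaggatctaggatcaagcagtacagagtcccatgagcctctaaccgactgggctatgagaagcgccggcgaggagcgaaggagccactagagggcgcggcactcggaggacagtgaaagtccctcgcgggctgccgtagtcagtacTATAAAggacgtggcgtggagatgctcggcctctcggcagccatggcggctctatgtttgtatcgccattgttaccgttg
Snhg11: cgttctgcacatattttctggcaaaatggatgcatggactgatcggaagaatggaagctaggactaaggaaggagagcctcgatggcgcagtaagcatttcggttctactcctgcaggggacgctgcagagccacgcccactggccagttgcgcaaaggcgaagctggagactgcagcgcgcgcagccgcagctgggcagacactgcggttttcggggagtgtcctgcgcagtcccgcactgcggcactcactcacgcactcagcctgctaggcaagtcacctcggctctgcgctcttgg
The Snhg7 window holds TATAAA once, starting 30 bases before the start site, and the Snhg11 window does not hold it. Promoters of 8 of the 10 Snhg hosts were matched, those of Snhg4 and Snhg6 were not, and Snhg1, Snhg5, Snhg7, Snhg8 and Snhg9, 5 of the 8, hold TATAAA on either strand, beside 14.2% of 27025 promoters of the same length. CTTTTC and CTCTTTC, letters that occur in the pyrimidine tracts with which many snoRNA hosts begin, were found on either strand in 3 and 0 of the 8, beside 21.8% and 8.01% of all promoters. On the strand of the gene, where such a tract would lie, CTTTTC was in 1 of the 8, Snhg8, beside 11.3%, and CTCTTTC in 0, beside 3.91%. TATAAA on the strand of the gene was in 4 of the 8, beside 8.88%; the match of Snhg1 is on the other strand. The CTTTTC match of the Snhg7 window does not overlap its TATAAA match. ACCNTNA and ATTTGCA, cores of 2 elements of RNA polymerase III promoters of the Rmrp type, were in 0 of the 8, beside 32.1% and 3.98% of all promoters. These matches describe letters only. Promoters of Rmrp and Rpph1 are not printed.

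The other Snhg hosts differed little between the groups. Without Snhg7 and Snhg9, 8 host names were tested in every comparison at a mean of at least 1 FPKM, and Cuffdiff called 0 of 8 each time, with 0 at an unadjusted p under 0.05. Their log2 folds ran from -0.12 to 0.18 for GluN1 against WT, from -0.07 to 0.11 for GluN1Cre against GluN1 and from -0.18 to 0.11 for GluN1Cre against WT. A fold that was not called does not show that the levels were equal.

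Snhg11, a host with high expression in neurons, had the highest level of all hosts. Its main model had 444 FPKM in GluN1 and 473 FPKM in WT, 471 FPKM in GluN1Cre and 445 FPKM in GluN1, and 430 FPKM in GluN1Cre and 435 FPKM in WT in the 3 tables. A further Snhg11 model lay between 7.81 and 26.8 FPKM and had log2 folds of -0.49, 0.45 and -0.01, none of them called. Snhg12, the host of Snora44 and Snora61, had 21.3 FPKM in GluN1 and 20.99 FPKM in WT, 23.2 FPKM in GluN1Cre and 23.3 FPKM in GluN1, and 22.6 FPKM in GluN1Cre and 22.7 FPKM in WT. Snhg6, the host of Snord87, had 25.7 FPKM in GluN1 and 22.7 FPKM in WT, 26.04 FPKM in GluN1Cre and 27.3 FPKM in GluN1, and 24.3 FPKM in GluN1Cre and 22.5 FPKM in WT. The groups lay close together for both hosts.

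Snhg8 differed in level and in assembled locus between the authors' runs. It had 31.0 FPKM in GluN1 and 33.8 FPKM in WT in a table where its locus spans 1142 bases, but 11.0 FPKM in GluN1Cre and 11.0 FPKM in GluN1 where it spans 2134 bases. In the third table, GluN1Cre had 10.8 FPKM and WT 12.3 FPKM. The same animals thus gave GluN1 values of 31.0 and 11.0 FPKM, a log2 difference of 1.49 between tables. The cause of that difference was not tested. Over 61 such pairs of values of 1 group, the median absolute log2 difference was 0.06, and 9 exceeded 0.25. Folds within a table use 1 model for both groups, and Snhg8 had log2 folds of -0.12, -0.0035 and -0.18.

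Snhg1, the host of a cluster of C/D snoRNAs, had 9.17 FPKM in GluN1 and 9.77 FPKM in WT, 11.7 FPKM in GluN1Cre and 11.2 FPKM in GluN1, and 11.6 FPKM in GluN1Cre and 11.5 FPKM in WT. Snhg4 had 6.49 FPKM in GluN1 and 6.59 FPKM in WT, 7.05 FPKM in GluN1Cre and 6.53 FPKM in GluN1, and 6.94 FPKM in GluN1Cre and 6.50 FPKM in WT. Snhg5 had 4.90 FPKM in GluN1 and 4.98 FPKM in WT, 5.20 FPKM in GluN1Cre and 4.91 FPKM in GluN1, and 5.14 FPKM in GluN1Cre and 4.93 FPKM in WT. None of these was called. Snhg10, whose locus carries Scarna13, had 5.14 FPKM in GluN1 and 4.92 FPKM in WT, 4.86 FPKM in GluN1Cre and 4.59 FPKM in GluN1, and 4.66 FPKM in GluN1Cre and 4.34 FPKM in WT. The exception in level was Snhg9, a short host listed at 0 in GluN1 against 3.17 FPKM in WT (p = 0.0902 in the authors' deposited table). It had 0.716 FPKM in GluN1Cre against 3.13 FPKM in WT (p = 0.437 in the authors' deposited table), and neither difference was called. In the table of GluN1Cre against GluN1 Snhg9 was not tested, at 0.742 FPKM in GluN1Cre and listed at 0 in GluN1.

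**Figure D3:**
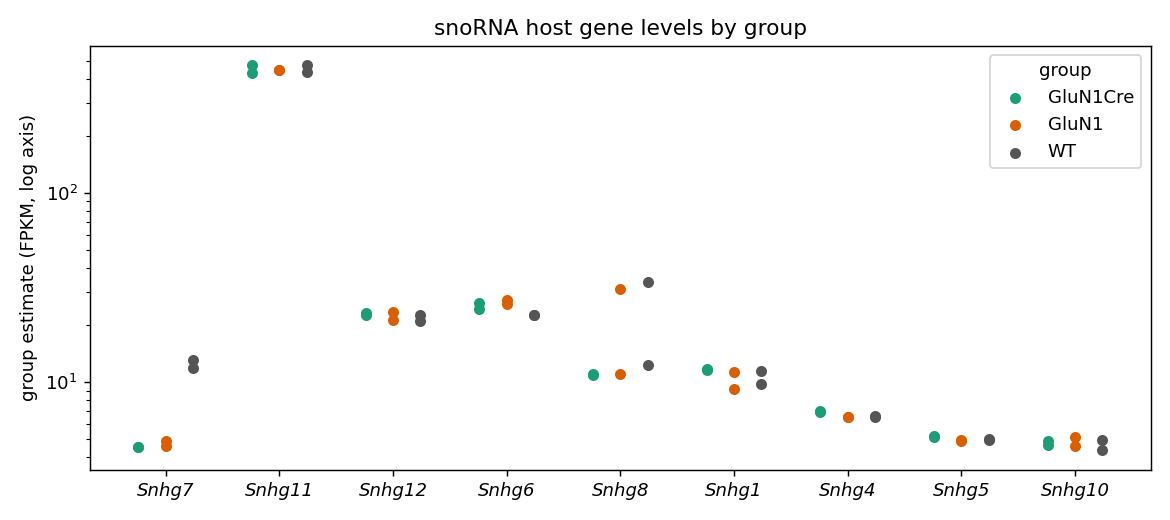
FPKM (y axis, log scale) of the main model of 9 snoRNA host genes (x axis) in GluN1Cre, GluN1 and WT cortex, with 1 point per group and table, so that points of 1 colour show differences between table runs and not between animals. WT lies above both other groups for Snhg7, at 11.9 and 13.1 FPKM against 4.51 to 4.86 FPKM, while the points of Snhg8 split by table.

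A separate list of other transcripts from loci with small RNAs, Gas5, Meg3, Rian, Mirg and the protein-coding Snrpn and Snurf, had 0 Cuffdiff calls among 6 models for GluN1 against WT and 7 for each other comparison, and 0 had an unadjusted p under 0.05. Gas5, which hosts many C/D snoRNAs, had 61.2 FPKM in GluN1 and 62.9 FPKM in WT, and 49.6 FPKM in GluN1Cre and 50.9 FPKM in WT. Several members labelled by a snoRNA are long host transcripts too. D7Ertd715e, the long transcript labelled with Snord64, had 12.6 FPKM in GluN1 and 12.5 FPKM in WT, and 15.1 FPKM in both GluN1Cre and WT. For GluN1Cre against GluN1 it had 11.5 FPKM in GluN1Cre and 11.7 FPKM in GluN1, so its GluN1Cre value differed between the authors' runs. RefSeq gives this transcript the name Snhg14. It gives the name Snhg16 to 1810032O08Rik, labelled with Snord1a, which lay between 2.58 and 2.76 FPKM in every group and table. It gives the name Dancr to 2700023E23Rik, labelled with Snora26, which had 7.30 FPKM in GluN1 and 6.15 FPKM in WT, a log2 fold of 0.25 (p = 0.186 in the authors' deposited table). In the table of GluN1Cre against GluN1 the same model had 6.18 FPKM in GluN1Cre and 7.32 FPKM in GluN1, a log2 fold of -0.24 (p = 0.167 in the authors' deposited table). The model of 1110038B12Rik and Snord52 had 15.1 FPKM in GluN1 and 14.0 FPKM in WT, and 12.9 FPKM in GluN1Cre and 12.8 FPKM in WT. For GluN1Cre against GluN1 it had 13.5 FPKM in GluN1Cre and 14.5 FPKM in GluN1. None of these models was called.

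The snoRNAs themselves were hardly measured. Of the 115, 111 and 112 rows that carry a member symbol in the 3 tables, 91, 88 and 87 were not tested, and 86, 79 and 82 of these are listed at 0 in both groups. Among tested models that carry a snoRNA or scaRNA symbol and no Snhg symbol, 9 in GluN1 against WT, 9 in GluN1Cre against GluN1 and 10 in GluN1Cre against WT, Cuffdiff called none, and 0 had an unadjusted p under 0.05. Their loci spanned 923 to 65665 bases, where the annotated RNAs have 66 to 414 bases. A locus can be shared by several models, so its span is not the length of the measured transcript. Whether such a value is that of the small RNA therefore cannot be told from the span. Snora30, for example, had 17.9 FPKM in GluN1Cre and 17.3 FPKM in GluN1, in a locus of 61830 bases, where the snoRNA has 130 bases.

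Large folds without a call were seen for short RNAs that lie inside hosts. Snora16a, within the Snhg12 locus, had 42.5 FPKM in GluN1 and 123 FPKM in WT, a log2 fold of -1.53 with p = 0.561 in the authors' deposited table. It was listed at 0 in GluN1Cre against 122 FPKM in WT, with p = 0.182 in the authors' deposited table. Snora81, inside the protein-coding host Eif4a2, had 2.21 FPKM in GluN1 and 7.23 FPKM in WT (p = 0.445 in the authors' deposited table) and was listed at 0 in GluN1Cre against 7.20 FPKM in WT (p = 0.164 in the authors' deposited table). Snhg12, over the same locus as Snora16a, had log2 folds of 0.02 for GluN1 against WT and -0.0096 for GluN1Cre against WT. The scaRNA models lay lower: Scarna17 had 1.19 FPKM in GluN1 and 1.27 FPKM in WT, and Scarna2 had 0.364 FPKM in GluN1 and 0.282 FPKM in WT. Scarna13, Snora47, Snord89 and Snord118 stayed under 1 FPKM in every group where they were tested.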

How the data were processed

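RNA with poly(A) tails, from the frontal cortex of 12 male mice in 3 groups of 4, was sequenced by the submitters. Per the series' design text, a Galaxy server ran the Tuxedo programs on the reads. Cuffdiff 2.2.1.3, TopHat2 2.1.0 and Cufflinks 2.2.1.0 stand with mm10 and GRCm38 in the submitters' processing notes. For each pair of groups the authors deposited 1 Cuffdiff table with an FPKM value per group, a test score, a p-value and a q-value. The groups are WT, NR1 and NR1Cre per the file headers, read here as WT, GluN1 and GluN1Cre, since NR1 is the older name of GluN1. Each table has its own assembly and scaling, and every test stays inside 1 table. FPKM of a transcript near the length of a library fragment depends strongly on the length correction. Whether the counting used strand is not given in the sources used here, so reads of overlapping genes on opposite strands cannot be told apart.

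Log2 folds were recomputed from the deposited FPKM values with Python 3.11.15, pandas 2.3.3 and numpy 2.4.6, with no pseudocount and no filter; a median counts a member listed at 0 as lowest. Benjamini-Hochberg adjustment over all tested models gave the deposited q-values to within 5.14e-07. The call step was tested on simulated data. Members under 1 name were numbered by level. Named were Rmrp, Rpph1, Rn45s, called members, Snhg hosts with a mean of at least 1 FPKM, the 6 highest snoRNA or scaRNA labels, up to 4 called models per related list, and Grin1; others were chosen after their values were seen. The members and lists were chosen with earlier results of these data known. Alternatives tried were q under 0.05, a mean of at least 1 FPKM, single-symbol rows, pseudocounts of 1 and 0.1 FPKM, centred folds, and folds through the third group.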

Additional observations from a re-analysis of the deposited data

Results flagged for a closer look

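A few snoRNA rows that the authors' Cuffdiff runs left untested hold a value in 1 group above that of the group it is set against, and they enter no comparison above. Snora7a had 197 FPKM in GluN1 and was listed at 0 in WT; in the other table with GluN1 it was listed at 0 in GluN1Cre against 199 FPKM in GluN1. Snora74a had 1.88 FPKM in GluN1 and 0.490 FPKM in WT. Snora78 had 4.44 FPKM in GluN1Cre and was listed at 0 in GluN1, while WT had 8.67 FPKM in the table of GluN1 against WT. Snora23 had 1.11 FPKM in GluN1Cre and was listed at 0 in GluN1, and it had 1.11 FPKM in GluN1Cre and 0.903 FPKM in WT. These differences were not tested, and values of transcripts this short can rest on very few fragments.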

How the results depend on the processing

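The 8 calls of Rmrp, Rpph1, Rn45s and Snhg7 kept their direction with centred folds and, where available, with folds through the third group. A q threshold or a pseudocount cannot change the direction of a fold, so those settings do not bear on it. At q under 0.05, 1 call was lost, that of Rmrp for GluN1Cre against GluN1. With single-symbol rows only, 0 members were called for GluN1Cre against WT, since the Snhg7 model carries 3 symbols, and the median log2 fold for GluN1 against WT was -0.055; Cuffdiff's calls stood otherwise within 1.5 times the reported counts. The medians ranged from -0.05 to 0.03, from -0.03 to 0.02 and from -0.01 to 0.0038 in the 3 comparisons. Of the members not called, 9 values changed sign, all of folds of at most 0.02 in size. Through the third group these were -0.0038 for Snhg12 in GluN1 against WT and, in GluN1Cre against WT, -0.038 for Snhg1, 0.016 for Snhg12, 0.0030 for Snora26 and -0.0042 for Snord64. With centred folds they were 0.00080 for Snhg8 in GluN1Cre against GluN1 and, in GluN1Cre against WT, 0.0036 for model 2 of Snhg11, 0.0021 for Snhg12 and 0.00094 for Snora26. A further 7 values of members not called kept their sign but moved by more than the usual difference between tables. Snhg7 in GluN1Cre against GluN1 had -0.25 through the third group, where its own table gives -0.01. With a pseudocount of 1 FPKM, GluN1Cre against WT gave 0.41 for Rmrp, 0.13 for Rpph1, -0.07 for model 2 of Snhg7 and -1.27 for Snhg9, and GluN1 against WT gave -1.36 for Snora81; with 0.1 FPKM, Snhg9 in GluN1Cre against WT had -1.99. The cause was not tested. For called members only the call and the direction were compared, and the sizes of their folds moved too. With a pseudocount of 1 FPKM, GluN1 against WT gave 2.09 for Rmrp, 1.89 for Rpph1, 0.81 for Rn45s and -1.13 for Snhg7. GluN1Cre against GluN1 then gave -1.67 for Rmrp, -1.80 for Rpph1 and -0.98 for Rn45s. Through the third group Snhg7 had -1.52 in GluN1 against WT and -1.30 in GluN1Cre against WT. Members listed at 0 in a group have no fold to vary. No paired analysis was possible because the tables hold 1 value per group, and for the same reason no animal could be left out. Depth per animal is unknown, so how few fragments stand behind the short RNAs cannot be given.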
